A study of Mus musculus with 18 samples.

Results

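The genes described here are 10 stress-response genes of mouse colon, 4 heat-shock genes (*Hspa1a*, *Hspa1b*, *Dnajb1* and *Hsph1*) and 6 immediate early genes (*Fos*, *Fosb*, *Jun*, *Junb*, *Egr1* and *Atf3*). They were taken by name from 2 deposited tables that list the same 52636 gene IDs, and each of the 10 was found once in both. The study asked what the odorant receptor Olfr78 does in the colon epithelium, and measured RNA by sequencing in 18 libraries, 6 of sorted epithelial cells and 12 of isolated crypts. The 10 genes are followed here across both kinds of preparation and all genotypes, as readouts of tissue handling and of the response to stress.

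In the Olfr78-GFP line a cassette with GFP takes the place of the coding exon of *Olfr78*, so that heterozygous mice (HE) carry 1 functional allele and homozygous mice (KO) none. Sorted libraries were 2 Epcam+ samples of WT mice, titled Epcam+/GFP- and both from the same mouse, 2 pools of Epcam+/GFP+ cells from HE mice and 2 pools of Epcam+/GFP+ cells from KO mice, each pool made from a pair of mice. Crypt libraries, each from its own mouse, were 2 WT and 5 KO of the same line, and 3 eCtrl and 2 eKO of a line in which a floxed *Olfr78* is deleted by Cre under the Villin promoter, which is active in epithelial cells only, with the gene left intact in other tissues. The genotype labels of that line read HE/WT, WT/HO and HE/WT in eCtrl mice 1 to 3, HE/HO in eKO mouse 1 and WT/HO in eKO mouse 2. The last of these is the label of eCtrl mouse 2, so the library is called here the library labelled eKO mouse 2. The fit of eKO against eCtrl, the fit of both lines and the eKO levels per kilobase are also given without it. The difference between the lines and the correlations over crypts are not. Crypts were released with EDTA on ice, whereas cells for sorting were further digested with TrypLE at body temperature, stained for Epcam, the epithelial adhesion molecule, and sorted by flow cytometry. RNA was extracted with the RNeasy mini kit from crypts and with the miRNeasy micro kit from sorted cells. Digestion, sorting, kit and amount of material therefore all changed together between sorted cells and crypts, and their parts cannot be told apart.

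Heat-shock proteins are chaperones that hold unfolded proteins and refold them. Their genes are switched on when unfolded protein frees heat shock factor 1 (HSF1), which binds repeats of the letters GAA and TTC in their promoters. Immediate early genes are transcribed within minutes of a signal from the cell surface, a calcium rise or mechanical injury, without need for new protein, and most of their products are transcription factors. Both programmes are known to be started by the removal and enzymatic dissociation of tissue, and immediate early genes also by the activity of excitable cells such as enteroendocrine cells, the hormone-secreting cells of the gut epithelium.

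Promoter sequence from RefSeq (GRCm38.p6) was used here for 9 of the 10 genes. Entries on the chromosome that holds *Egr1* were left out of the search. The sequences of 4 are printed here, 160 bases up to the base before the transcription start, to show how alike the Hsp70 copies are (*Hspa1a* and *Hspa1b*) and how 2 genes of 1 family differ in the letters searched (*Fos* and *Fosb*). Capitals mark motifs found by a search of the 250 bases before the start, namely GAANNTTC and TTCNNGAA, the HSF1 units, which read the same on both strands, TGACG, the core of the cyclic AMP response element, on either strand, and TATAAA on either strand.
Hspa1a, chr17:34972157-34972316, minus strand: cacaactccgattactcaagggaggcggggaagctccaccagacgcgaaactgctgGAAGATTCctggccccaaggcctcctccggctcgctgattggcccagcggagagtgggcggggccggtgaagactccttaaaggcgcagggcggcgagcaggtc
Hspa1b, chr17:34959239-34959398, minus strand: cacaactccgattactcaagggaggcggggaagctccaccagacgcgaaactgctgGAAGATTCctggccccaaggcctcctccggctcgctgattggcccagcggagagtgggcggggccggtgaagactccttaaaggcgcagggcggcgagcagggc
Fos, chr12:85473730-85473889, plus strand: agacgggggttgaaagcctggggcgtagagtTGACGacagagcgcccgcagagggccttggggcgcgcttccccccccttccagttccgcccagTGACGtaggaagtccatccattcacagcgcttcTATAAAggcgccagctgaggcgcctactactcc
Fosb, chr7:19310046-19310205, minus strand: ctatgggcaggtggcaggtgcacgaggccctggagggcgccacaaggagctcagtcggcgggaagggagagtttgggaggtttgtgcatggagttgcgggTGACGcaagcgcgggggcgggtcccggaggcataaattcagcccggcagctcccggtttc
*Hspa1a* and *Hspa1b* were alike in 159 of these 160 bases and in 247 of 250, and each held GAANNTTC from -104 to -97. *Fos* held TGACG from -129 to -125 and from -66 to -62, and TATAAA from -33 to -28. *Fosb* held TGACG from -60 to -56. Among the others, *Hsph1* held TTCNNGAA from -33 to -26, *Jun* held GAANNTTC from -128 to -121, and *Junb*, *Atf3* and *Dnajb1* each held TGACG, in *Atf3* and *Dnajb1* on the opposite strand. In 32851 promoter entries searched in the same window, GAANNTTC was present in 6.69%, TTCNNGAA in 7.17%, TGACG in 17.8% and TATAAA in 12.4%, so that a match in any 1 gene is a description and not a binding site.

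The 2 copies of the inducible Hsp70 gene lie near each other on the minus strand of chromosome 17, *Hspa1a* (ENSMUSG00000091971) from 34969190 to 34972156 and *Hspa1b* (ENSMUSG00000090877) from 34956436 to 34959238. Of the 100-base windows of the *Hspa1a* transcript, 47.1% occur letter for letter in *Hspa1b*, and 49.9% in the other direction, so reads could be split between them and the division between the copies is uncertain. *Dnajb1* (ENSMUSG00000005483) lies on chromosome 8 from 83608193 to 83612653, *Hsph1* (ENSMUSG00000029657) on chromosome 5 from 149614287 to 149636376, *Fos* (ENSMUSG00000021250) on chromosome 12 from 85473890 to 85477273 and *Fosb* (ENSMUSG00000003545) on chromosome 7 from 19302696 to 19310051. *Jun* (ENSMUSG00000052684) lies on chromosome 4 from 95049034 to 95052222, *Junb* (ENSMUSG00000052837) on chromosome 8 from 84974484 to 84978718 and *Atf3* (ENSMUSG00000026628) on chromosome 1 from 191170296 to 191218039. Exons of genes on the other strand cover part of 3 of them, 19% of the exonic length of *Hspa1a* (*Gm20481*), 7.28% of *Jun* (*Junos*) and 7.52% of *Junb* (*Prdx2*). Whether the counting used strand is not given in the sources used here, and without it reads from these stretches cannot be assigned to either gene.

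Values are CP20M, reads per gene scaled to 20000000 per library. The reads on genes recovered from the tables were 1499836 to 2237486 in 5 sorted libraries, 532704 in sorted KO pool 1 and 6175306 to 10995308 in the crypts, so that 1 read was worth 8.94 to 13.3, 37.5 and 1.82 to 3.24 CP20M in turn. *Olfr78* had 135 and 21 CP20M in sorted WT, 4822 and 4401 in HE, 977 and 837 in KO pools, then 88 and 111 in WT crypts, 7 to 42 in KO crypts, 61 to 124 in eCtrl, 21 in eKO mouse 1 and 73, within the eCtrl range, in the library labelled eKO mouse 2. These counts do not separate the replaced exon of *Olfr78* from its others, and *Olfr560* shares 15.3% of its exonic length, so they check the KO labels only in part. The 6 epithelial markers summed to 52940 to 133578 CP20M over the 18 libraries. The 5 enteroendocrine markers summed to 12980 and 12638 CP20M in sorted WT, although these are labelled enteroendocrine, to 853709 and 1109150 in HE pools, 601011 and 355618 in KO pools and 5844 to 14621 in crypts. The 6 leukocyte markers summed to 38 to 99 CP20M in sorted cells, with *Cd3e* and *Laptm5* at 0 in all 6 libraries, and to 298 to 761 in crypts. The 6 stromal and muscle markers summed to 0 to 350 in sorted cells and 154 to 1617 in crypts, and the 4 haemoglobin genes to 0 to 163 and 0 to 76. The 4 endothelial and glial markers summed to 126 and 361 in sorted WT, 897 to 1879 in GFP+ pools and 94 to 318 in crypts. Of these, *Cdh5* was at 0 in all sorted libraries and *Sox10* in sorted WT and HE. The 1 of them tested was called higher in HE pools than in sorted WT (limma, log2 fold change 2.89).

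**Figure D1:**
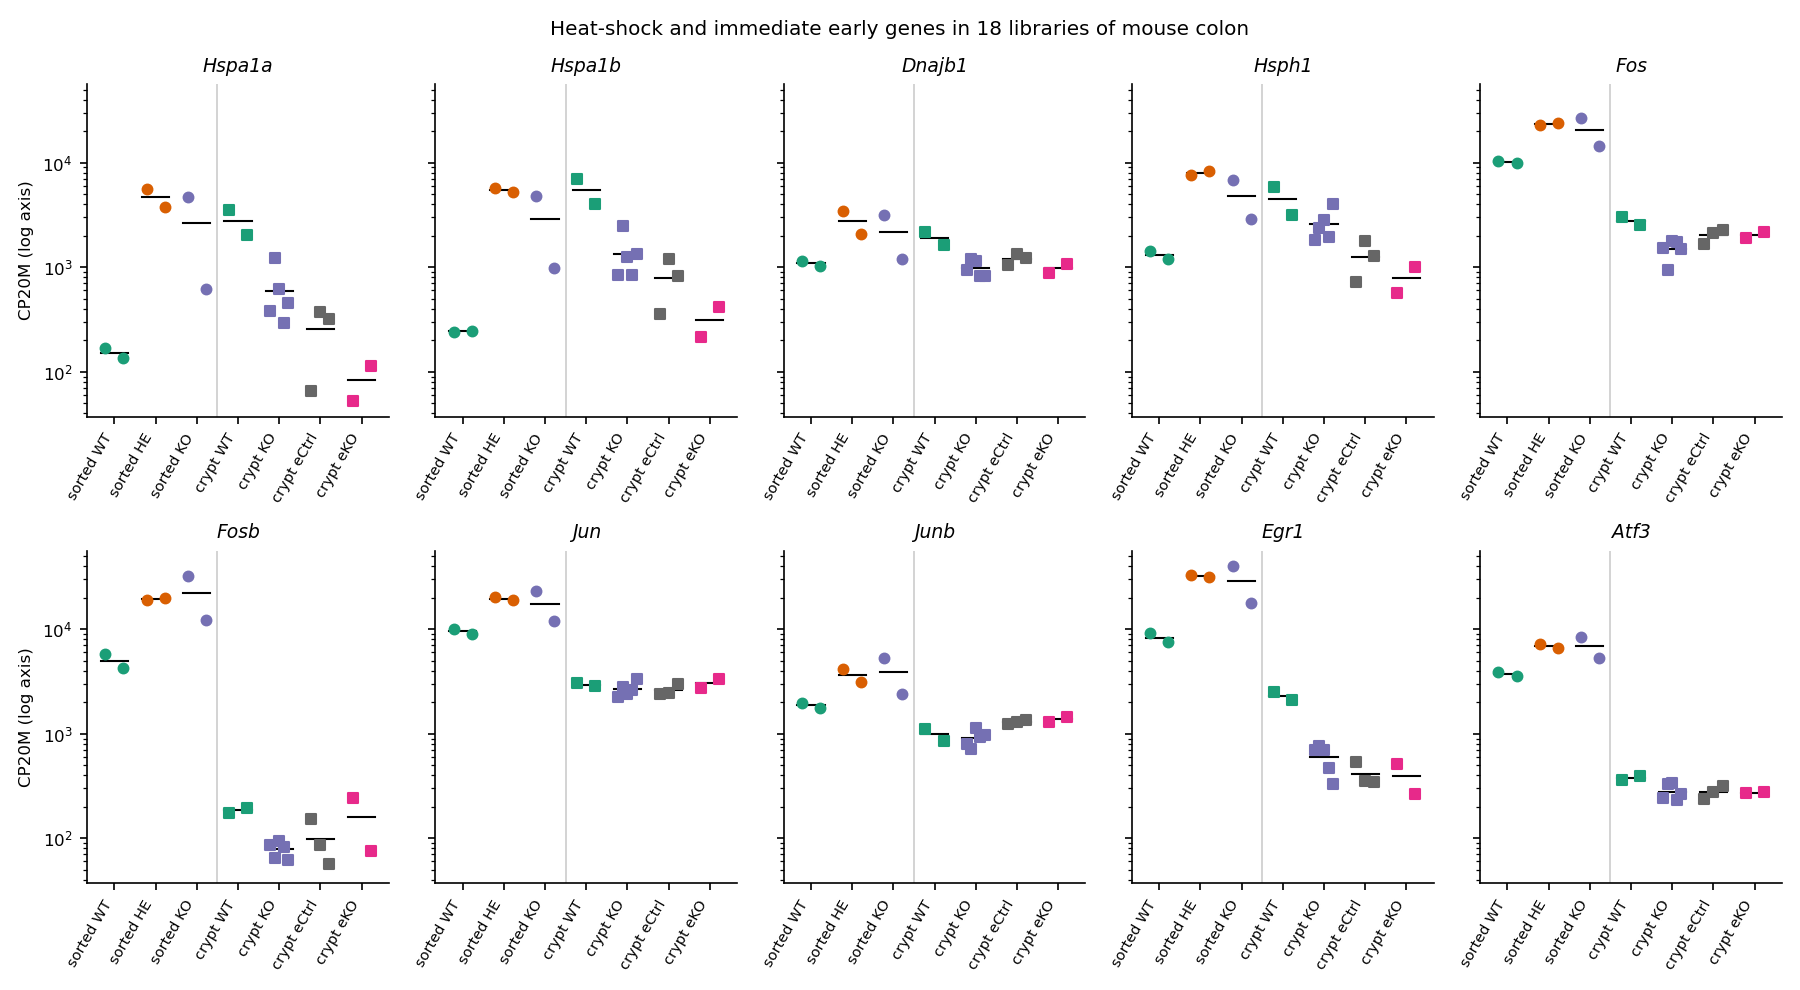
Level of each of the 10 genes (CP20M, log axis) in each library, by group, with circles for sorted cells, squares for crypts and a line at the group mean. The 6 immediate early genes lie higher in all 6 sorted libraries than in any of the 12 crypt libraries, whereas the heat-shock genes overlap between the preparations and are lowest among sorted cells in WT.

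All 6 immediate early genes were higher in each of the 6 sorted libraries than in any crypt library. Within the table that holds both, all 6 sorted libraries lay above all 7 crypt libraries in 6 of the 10 genes, against 2.75% of the 18295 genes with at least 40 CP20M in at least 2 of these 13 libraries. The 6 were the immediate early genes, and none of the heat-shock genes separated in this way. In bulk RNA, more cells that express a gene and more RNA per cell cannot be told apart.

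*Fosb*, which encodes a Fos family partner of Jun proteins in the AP-1 transcription factor, was the gene that differed most. It had 5775 and 4233 CP20M in sorted WT, 19021 and 19696 in HE, 32514 and 12260 in KO pools. Crypts of WT mice had 176 and 195, and the 10 other crypts from 57 to 241, with a median of 84.5. The lowest sorted library thus held many times the level of the highest crypt library. Sorted WT cells exceeded WT crypts by a log2 fold change of 4.67 ± 0.18 (SE, limma adjusted p = 4.9e-06), the fifth largest of the 15434 genes tested, with a ratio of the means of 27. Sorted KO cells exceeded KO crypts by 7.84 ± 0.35 (SE, limma adjusted p = 6.8e-05), the largest of the 16632 genes tested, with a ratio of the means of 286.

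*Fos*, the founding member of that family, had 10325 and 10037 CP20M in sorted WT, 22945 and 24136 in HE and 26657 and 14351 in KO pools. In crypts it had 3012 and 2549 in WT and from 936 to 2291 in the 10 others, with a median of 1766. *Fos* was thus well expressed in crypts also, and its log2 fold changes between sorted cells and crypts were 1.87 ± 0.12 (SE) in WT and 3.74 ± 0.30 (SE) in KO, with adjusted p-values of 9.6e-05 and 0.00027 from limma.

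*Egr1*, a zinc finger transcription factor induced by growth factors, varied over a wide range. It had 9136 and 7520 CP20M in sorted WT, 32714 and 31711 in HE, 40173 and 17732 in KO pools. It had 2485 and 2096 in WT crypts and from 266 to 765 in the 10 other crypts, with a median of 494. Its levels formed steps, with GFP+ cells above sorted WT cells, sorted WT cells above WT crypts, and WT crypts above all other crypts. The log2 fold changes of sorted cells against crypts were 1.86 ± 0.14 (SE, limma adjusted p = 0.00023) in WT and 5.53 ± 0.39 (SE, limma adjusted p = 0.0002) in KO.

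*Atf3*, a transcriptional repressor of the ATF family that is induced by many kinds of cell stress, had 3916 and 3596 CP20M in sorted WT, 7250 and 6588 in HE, 8448 and 5346 in KO pools and from 233 to 390 in the 12 crypts. Its crypt levels were narrowly spread, and its log2 fold changes were 3.28 ± 0.14 (SE) in WT and 4.55 ± 0.23 (SE) in KO, with adjusted p-values of 7e-06 and 8e-05 from limma.

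*Jun*, which encodes the Jun subunit of AP-1, had 10155 and 8969 CP20M in sorted WT, 20114 and 18976 in HE, 23240 and 11934 in KO pools and from 2234 to 3366 in the 12 crypts. *Junb*, a second Jun subunit, had 1985 and 1767, 4189 and 3121, and 5332 and 2406 in the same order and from 707 to 1454 in the crypts. These were the smallest differences among the immediate early genes, with log2 fold changes in WT and KO of 1.69 ± 0.11 (SE) and 2.64 ± 0.26 (SE) for *Jun* and of 0.93 ± 0.16 (SE) and 1.98 ± 0.30 (SE) for *Junb*. The adjusted p-values from limma were 0.00012 and 0.00044 for *Jun* and 0.00607 and 0.00181 for *Junb*.

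The heat-shock genes did not follow the immediate early genes. In sorted WT cells all 4 were lower than in WT crypts. *Hspa1a*, which encodes the inducible Hsp70 chaperone, had 170 and 134 CP20M in sorted WT against 3563 and 2021 in WT crypts, a log2 fold change of -4.06 ± 0.27 (SE, limma adjusted p = 0.00012). Its copy *Hspa1b* had 242 and 247 against 6924 and 3999, a log2 fold change of -4.37 ± 0.24 (SE, limma adjusted p = 3.9e-05), and summing the copies gave -4.29 ± 0.23 (SE). *Hsph1*, which encodes Hsp110, a nucleotide exchange factor of Hsp70, had 1440 and 1192 against 5867 and 3146, a log2 fold change of -1.71 ± 0.26 (SE, limma adjusted p = 0.00361). *Dnajb1*, which encodes the Hsp40 co-chaperone of Hsp70, had 1145 and 1028 against 2187 and 1637, a log2 fold change of -0.80 ± 0.17 (SE, limma adjusted p = 0.0119). Without WT crypt mouse 1, *Dnajb1* was no longer called (-0.59, adjusted p = 0.161). These WT crypts held more heat-shock RNA than any other crypts for 3 of the 4 genes, as described below, so the reference of this comparison stood high.

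In GFP+ cells of KO mice, 1 of the 4 genes, *Dnajb1*, was called higher than in KO crypts, and 0 were called lower. *Hspa1a* had 4656 and 616 CP20M in the sorted KO pools against 290 to 1221 in the 5 KO crypts, and *Hspa1b* 4769 and 988 against 834 to 2462. *Hsph1* had 6758 and 2917 against 1842 to 4029, and *Dnajb1* 3192 and 1197 against 822 to 1189. Pool 1, with the fewest reads of all libraries, lay above all KO crypts for each of the 4, and pool 2 lay within the range of the KO crypts for 3 of them. *Dnajb1* passed the test, with a log2 fold change of 1.00 ± 0.34 (SE, limma adjusted p = 0.0388). The log2 fold changes of *Hspa1a*, *Hspa1b* and *Hsph1* were 1.68 ± 0.76 (SE), 0.81 ± 0.60 (SE) and 0.83 ± 0.38 (SE), with adjusted p-values of 0.0917, 0.28 and 0.0952 from limma. Without pool 1 the log2 fold change of *Dnajb1* was 0.29 and that of *Hspa1b* turned to -0.32. Without pool 2 the values were 3.13 for *Hspa1a*, 1.94 for *Hspa1b*, 1.43 for *Hsph1* and 1.70 for *Dnajb1*. The call of *Dnajb1* was lost without any 1 of the 5 KO crypts (limma adjusted p from 0.0527 to 0.0788). It was lost with the replicate block too (limma adjusted p = 0.27).

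Over the 10 genes, 10 differed between sorted WT cells and WT crypts at an adjusted p-value under 0.05 (limma), against 24.6% of the 15434 genes tested. Both sorted WT samples came from 1 mouse, so no p-value of this comparison, here or above, measures a spread between mice on that side. Leaving out 1 library moved the count of all genes called from 3791 to between 1230 (without WT crypt mouse 2) and 6549 (without sorted WT sample 1). The 6 higher genes compare with 6.07% of all genes higher, and the 4 lower genes with 18.5% lower. For sorted KO cells against KO crypts, 7 of the 10 were called, all higher, against 53.3% of the 16632 genes called and 10.4% called higher. The edgeR test on the recovered reads called 9 of the 10 higher, against 12.1% of all genes. The depth of the libraries differed several-fold in both comparisons, and over all genes tested the log2 fold changes had a median of -0.26 in WT and -0.56 in KO. Median-of-ratios rescaling moved these medians to -0.07 and -0.22 and changed the split of calls from 937 higher and 2854 lower to 1229 and 1432 in WT and from 1733 and 7128 to 2477 and 3700 in KO. Under that rescaling all 10 genes were called in WT with the same directions, and 8 in KO, with *Hsph1* added. Of the leukocyte markers, 4 of 5 tested were lower in sorted WT cells and 3 of 3 in sorted KO cells (edgeR 3 and 1). Stromal and muscle markers were lower in 2 of 3 and 3 of 3 (edgeR 1 and 0), and epithelial markers in 5 of 6 and 4 of 6 (edgeR 3 and 0). In addition, 5 of 5 enteroendocrine markers were higher in sorted KO cells, where in sorted WT cells 0 were higher and 1 lower. Their part in these results was not tested. Whether the differences between sorted cells and crypts differed between WT and KO was not tested.

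**Figure D2:**
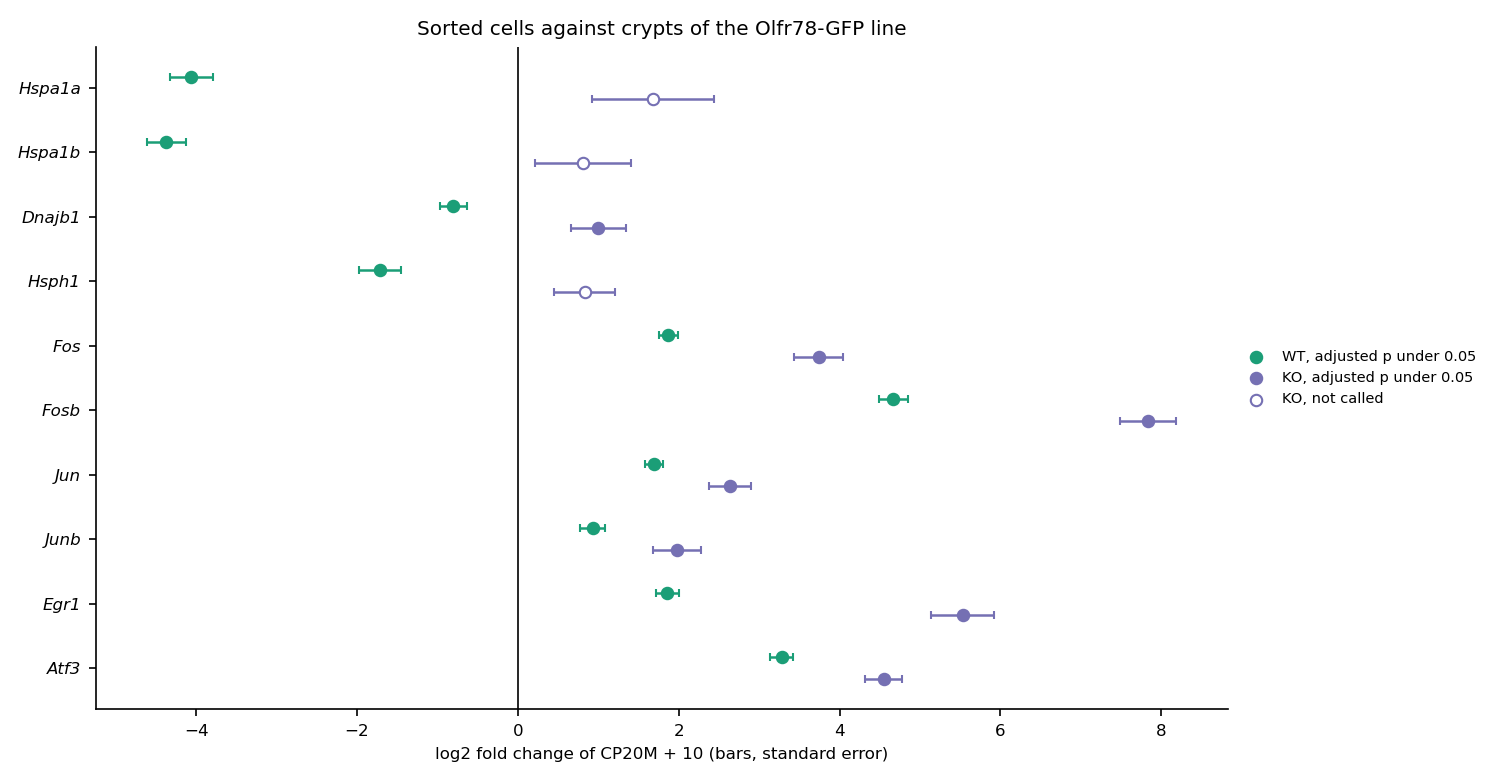
Log2 fold change of CP20M + 10 for the 10 genes (horizontal axis) between sorted cells and crypts, in WT (2 against 2 libraries) and in KO (2 against 5), with bars for the standard error and filled points for an adjusted p-value under 0.05 from limma. All 6 immediate early genes are to the right of 0 in both, and the 4 heat-shock genes are to the left of 0 in WT, from -4.37 to -0.80.

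Other genes of both programmes were counted in the same fits. Of 39 further immediate early genes, 36 were tested for sorted WT cells against WT crypts, of which 15 were higher and 7 lower, with a median log2 fold change of 0.75 against -0.26 for all genes. The 3 higher genes with the smallest p-values were *Nr4a1*, an orphan nuclear receptor (log2 fold change 3.55), *Dusp1*, a phosphatase of MAP kinases (2.80), and *Cyr61*, a secreted matrix protein (4.48). The 3 lower ones were *Sgk1*, a kinase induced by glucocorticoids (-2.02), *Klf4*, a transcription factor of differentiated epithelium (-0.79), and *Dusp6*, a phosphatase of ERK (-1.39). For sorted KO cells against KO crypts, 38 were tested, 26 were higher and 6 lower, with a median of 1.87 against -0.56. *Dusp1* (3.58), *Nr4a1* (5.69) and *Arc*, a synaptic protein and marker of neuronal activity (6.59), led the higher genes, and *Sgk1* (-2.80), *Myc* (-1.53) and *Dusp6* (-2.02) the lower ones.

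Of 26 further heat-shock response genes, 23 were tested in WT, where 0 were higher and 6 lower, with a median of -0.32 against -0.26 for all genes. The 3 with the smallest p-values were *Chordc1*, a partner of Hsp90 (-1.38), *Hspa8*, the constitutive Hsp70 (-1.12), and *Dnaja1*, a DnaJ co-chaperone (-0.90). In KO, 24 were tested, 4 were higher and 7 lower, with a median of -0.29 against -0.56. The higher ones were led by *Dnaja4*, a DnaJ co-chaperone (2.69), *Hspb1*, which encodes a small heat-shock protein (3.96), and *Hsf2*, a heat shock factor (0.67), and the lower ones by *Hspa4* (-0.75), *Hspd1*, the mitochondrial chaperonin (-1.50), and *Chordc1* (-0.48). With edgeR, 5 were higher and 0 lower in KO. The shares of all genes called lower by limma were 18.5% in WT and 42.9% in KO. Of 10 oxidative stress genes, 0 were higher and 5 lower in WT, and 0 higher and 8 lower in KO, where edgeR called 1 and 3 lower. Of 13 tested genes of the unfolded protein and integrated stress responses, 1 was higher and 4 lower in WT and 2 higher and 3 lower in KO, with *Ppp1r15a*, a phosphatase subunit that restarts translation, higher in both (2.06 and 2.97). With edgeR there were 3 higher and 2 lower in WT and 4 higher and 0 lower in KO. The balance turned over all genes tested too. There edgeR called 1711 higher and 1496 lower in WT, where limma called 937 and 2854. In KO edgeR called 2017 higher and 1430 lower, where limma called 1733 and 7128. Of 9 tested p53 targets, 0 were higher and 4 lower in WT, and 0 higher and 3 lower in KO, against 1 higher and 1 lower and 0 higher and 1 lower with edgeR.

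The balance between the programmes differed between the preparations. The summed CP20M of the 6 immediate early genes over that of the 4 heat-shock genes, a ratio that does not depend on the scaling of a library, was 13.8 and 13.9 in sorted WT, 4.74 and 5.35 in HE and 7.04 and 11.2 in KO pools. It was 0.549 and 0.831 in WT crypts, 0.776 to 1.57 in KO crypts, 1.41 to 2.84 in eCtrl, 4.04 in eKO mouse 1 and 2.93 in the library labelled eKO mouse 2. Every sorted library was above every crypt library, although HE pool 1 was close to eKO mouse 1. The sums themselves were 36122 to 136364 CP20M in sorted cells and 5575 to 10175 in crypts for the immediate early genes, without overlap, and 2601 to 22405 and 1714 to 18541 for the heat-shock genes, with wide overlap.

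**Figure D3:**
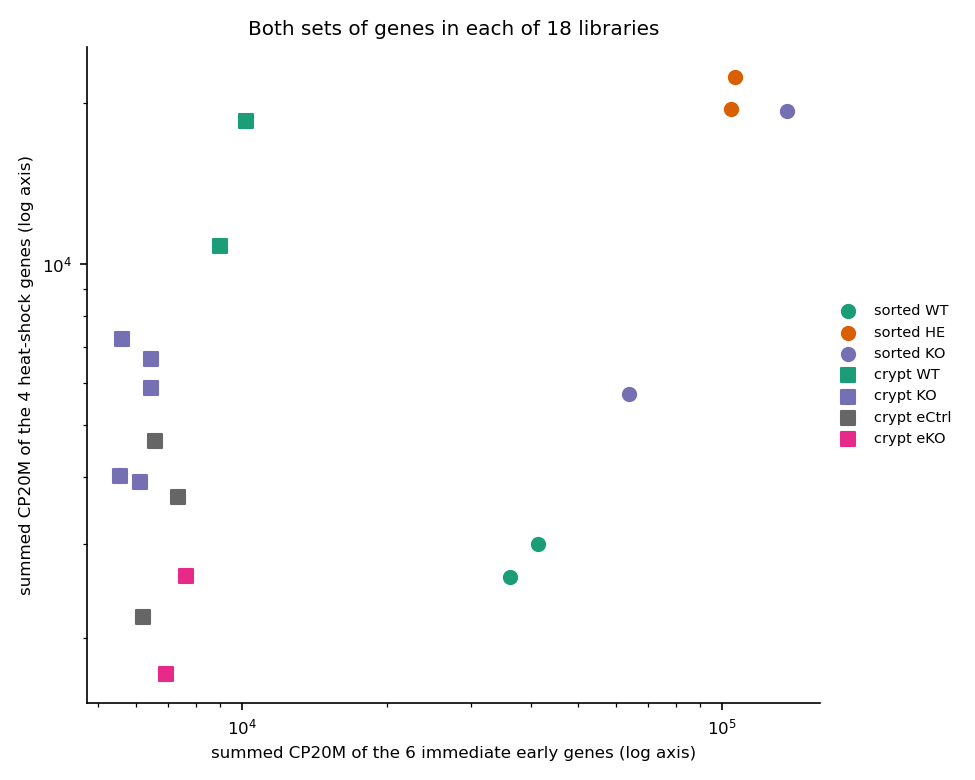
Summed CP20M of the 6 immediate early genes (horizontal, log axis) and of the 4 heat-shock genes (vertical, log axis) in each of the 18 libraries, with circles for sorted cells and squares for crypts. The preparations separate along the horizontal axis only, and the 2 sorted WT samples lie at the low end of the vertical axis among sorted cells, at 2997 and 2601 CP20M.

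Among sorted cells, GFP+ cells of HE mice had higher mean levels of all 10 genes than Epcam+ cells of the WT mouse. At an adjusted p-value under 0.05 (limma), 10 of the 10 were higher, against 23.8% of the 16355 genes called and 12.5% called higher. *Hspa1a*, *Hspa1b* and *Hsph1* had the largest fold changes of the 10, while *Dnajb1* was below *Fosb* and *Egr1*. *Hspa1a* had 5627 and 3734 CP20M in HE pools against 170 and 134 in WT, a log2 fold change of 4.83 ± 0.28 (SE, limma adjusted p = 2.9e-05) and a ratio of the means of 30.8. *Hspa1b* had 5685 and 5294 against 242 and 247, a log2 fold change of 4.43 ± 0.21 (SE, limma adjusted p = 1.1e-05) and a ratio of 22.5. *Hsph1* had 7606 and 8401 against 1440 and 1192 (log2 fold change 2.60 ± 0.18 SE), and *Dnajb1* 3487 and 2067 against 1145 and 1028 (1.30 ± 0.27 SE). The inducible Hsp70 copies were thus low in sorted WT cells and at or above most crypts in HE pools.

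The immediate early genes had smaller fold changes than the Hsp70 copies, and were high in sorted WT cells too. The log2 fold changes were 1.97 ± 0.20 (SE) for *Fosb*, 1.96 (0.18) for *Egr1*, 1.21 (0.17) for *Fos*, 1.03 (0.17) for *Jun*, 0.95 (0.21) for *Junb* and 0.88 (0.17) for *Atf3*, with adjusted p-values from 0.00032 to 0.0135 (limma). Of the other immediate early genes, 20 of 37 tested were higher and 4 lower, with a median of 0.97 against -0.05 for all genes. Their leading genes were *Arc* (3.44), *Egr3*, a zinc finger factor related to Egr1 (4.39), and *Klf2*, a Krüppel-like factor (2.59). On the lower side they were *Myc* (-1.93), *Klf4* (-0.72) and *Dusp6* (-0.91). The study counts *Egr3* among the transcription factors of late enteroendocrine cells that were enriched in these GFP+ cells. Of the other heat-shock response genes, 9 of 24 were higher and 1 lower, with a median of 0.37. *Dnaja4* (4.55), *Hspb1* (3.32) and *Dnaja1* (1.44) led, and *Hspd1* was lower (-0.79).

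Among the remaining stress lists in this comparison, 6 of 13 tested genes of the unfolded protein and integrated stress responses were higher and 1 lower, led by *Ppp1r15a* (1.86), *Hspa5*, the chaperone of the endoplasmic reticulum (0.70), and *Xbp1* (0.75), with *Pdia4* lower (-0.66). Over all genes, 11.3% were called lower. Of 10 oxidative stress genes, 0 were higher and 3 lower, *Nqo1* (-1.89), *Gclc* (-0.97) and *Hmox1* (-2.39). Of 8 p53 targets, 3 were higher and 2 lower. The 2 groups differ in cell type and in mice at once, since the enteroendocrine markers were 5 of 5 higher in HE pools and the WT samples came from 1 mouse, and these parts cannot be told apart. P-values measure the spread between 2 samples of 1 mouse and between 2 pools. Without the second WT sample, *Junb* and *Atf3* were no longer called and the count of all genes called was 1828 in place of 3892, and no other call was lost on leaving out 1 library.

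Between the GFP+ pools of KO and HE mice, 0 of the 10 genes were called, as were 0% of the 11892 genes tested (limma, with 503 at an unadjusted p-value under 0.05, 0 called by edgeR and 8 by DESeq2). The KO pools differed widely from each other. *Hspa1a* had 4656 CP20M in KO pool 1 and 616 in pool 2, against 5627 and 3734 in HE. *Hspa1b* had 4769 and 988 against 5685 and 5294, and *Hsph1* 6758 and 2917 against 7606 and 8401. Pool 1 was the higher KO pool for all 10 genes, and for *Fosb*, *Fos*, *Jun*, *Junb*, *Egr1* and *Atf3* it was above both HE pools while pool 2 was below both. The log2 fold changes were -1.43 ± 0.78 (SE) for *Hspa1a*, -1.33 ± 0.62 (SE) for *Hspa1b*, -0.85 ± 0.40 (SE) for *Hsph1* and -0.46 ± 0.48 (SE) for *Dnajb1*, and from -0.27 to 0.04 for the immediate early genes.

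Each KO pool alone gave another answer. Without pool 1, *Hspa1a* (-2.88, adjusted p = 3.31e-05), *Hspa1b* (-2.46, adjusted p = 5.75e-05) and *Hsph1* (-1.45, adjusted p = 0.0046) were called lower than in HE, in a limma fit where the spread came from the HE pools alone and 373 genes were called. Without pool 2, 0 of the 10 were called and *Hspa1a* was at 0.022. The pools also differed in depth, with 532704 and 1721183 reads, and in the summed enteroendocrine markers, with 601011 and 355618 CP20M, and the part of these in the result was not tested. Of the other lists, 0 genes were called in this comparison, with 4 of 22 heat-shock response genes and 1 of 35 immediate early genes at an unadjusted p-value under 0.05.

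In crypts of the Olfr78-GFP line, 6 of the 10 genes were lower in KO than in WT mice at an adjusted p-value under 0.05 (limma) and 0 were higher. Of the 15975 genes tested, 7.37% were called and 2.18% called lower, a split of 829 higher and 348 lower that became 694 and 824 under median-of-ratios rescaling, with the same number of the 10 genes lower. *Hspa1a* had 3563 and 2021 CP20M in WT and 384, 1221, 615, 290 and 458 in KO crypts, a log2 fold change of -2.34 ± 0.40 (SE, limma adjusted p = 0.0093), the eighth lowest of all genes. *Hspa1b* had 6924 and 3999 in WT and 845, 2462, 1246, 834 and 1338 in KO, a log2 fold change of -2.08 ± 0.34 (SE, limma adjusted p = 0.00831), and the sum of the copies gave -2.17 ± 0.36 (SE). *Dnajb1* had 2187 and 1637 in WT and 948, 1189, 1154, 822 and 827 in KO (log2 fold change -0.95 ± 0.16 SE, limma adjusted p = 0.00909). For these 3 genes, and for *Egr1*, *Fosb*, *Fos* and *Atf3* below, both WT crypts were above all KO crypts. The share of all genes that separated in this way was not counted. *Hsph1* had 5867 and 3146 in WT and 1842, 2362, 2852, 1961 and 4029 in KO, where KO mouse 5 exceeded WT mouse 2, and it was not called (-0.78 ± 0.27 SE, limma adjusted p = 0.101).

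Of the immediate early genes, *Egr1*, *Fosb* and *Fos* were lower in KO crypts. *Egr1* had 2485 and 2096 CP20M in WT and 699, 765, 696, 472 and 333 in KO, a log2 fold change of -1.99 ± 0.26 (SE, limma adjusted p = 0.00246). *Fosb* had 176 and 195 in WT and 86, 65, 95, 83 and 62 in KO (-1.16 ± 0.21 SE, limma adjusted p = 0.0105), and *Fos* 3012 and 2549 in WT and 1511, 936, 1775, 1756 and 1483 in KO (-0.92 ± 0.20 SE, limma adjusted p = 0.0188). The Jun side of AP-1 differed from the Fos side in the calls. *Jun* had 3028 and 2886 in WT and 2234 to 3325 in KO, and *Junb* 1111 and 860 in WT and 707 to 1146 in KO, with log2 fold changes of -0.15 ± 0.13 (SE) and -0.12 ± 0.17 (SE) and overlapping groups. *Atf3* had 363 and 390 in WT and 233 to 335 in KO, and was not called (-0.43 ± 0.16 SE, limma adjusted p = 0.127). Whether the changes of these genes differed from each other was not tested.

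These calls rested on having both WT mice. Without WT mouse 1, 1 of the 10 genes was called (*Egr1*, -1.87, adjusted p = 0.0444), and without WT mouse 2, 0 were, with all genes called falling from 1177 to 102 and 8. The values kept their direction for the 6 genes, for example -1.93 and -2.75 for *Hspa1a* and -1.80 to -2.11 for *Egr1* on leaving out each library in turn. In a fit of all 13 libraries of the table together, where the sorted cells enter the spread, 0 of the 10 and 4 genes in all were called. The summed leukocyte markers were 722 and 591 CP20M in WT crypts and 298 to 528 in KO crypts. Those of the stromal and muscle markers were 1321 and 472 against 331 to 795. Limma called 0 of 5 and 0 of 4 tested genes, and edgeR called 1 and 0 lower. At an unadjusted limma p-value under 0.05 were 3 of 5 and 0 of 4. The median log2 fold changes were -0.66 and -0.68, against 0.03 for all genes. The part of these markers in the result was not tested. Of the further heat-shock response genes, 0 of 23 were higher and 3 lower, *Dnaja1* (-0.67), *Chordc1* (-0.49) and *Hspa8* (-0.52), and of the further immediate early genes 1 of 32 was higher (*Tnfaip3*, an inhibitor of NF-kB, 0.66) and 1 lower (*Ier2*, -0.59). Of the oxidative stress genes, 0 of 10 were higher and 2 lower (*Nqo1*, -0.73, and *Gclm*, -0.48), and 0 of 13 unfolded protein and integrated stress response genes and 0 of 9 p53 targets were called.

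**Figure D4:**
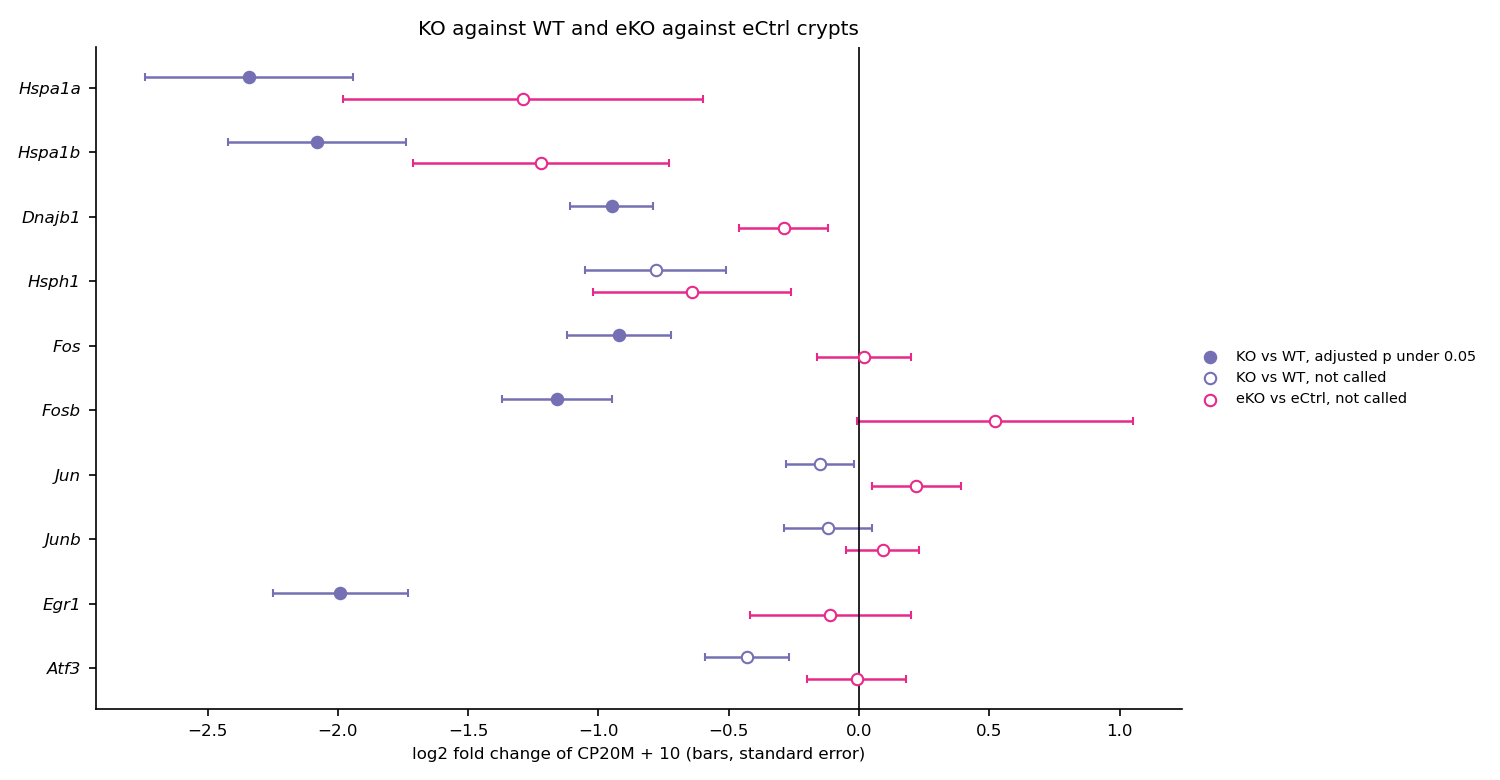
Log2 fold change of CP20M + 10 for the 10 genes (horizontal axis) in crypts, KO against WT (5 and 2 mice) and eKO against eCtrl (2 and 3 mice), with bars for the standard error and filled points for an adjusted p-value under 0.05 from limma. In KO against WT, 6 genes are called lower, and in eKO against eCtrl 0 are called, with the heat-shock genes between -1.29 and -0.29.

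In crypts of the Villin-Cre line, 0 of the 10 genes were called between eKO and eCtrl, as were 0% of the 15401 genes tested (limma, with 127 at an unadjusted p-value under 0.05, 0 called by edgeR and 0 by DESeq2). *Hspa1a* had 66, 376 and 322 CP20M in eCtrl, 52 in eKO mouse 1 and 113 in the library labelled eKO mouse 2. *Hspa1b* had 357, 1194 and 833, then 213 and 415, and *Hsph1* 725, 1765 and 1285, then 570 and 995. All 4 heat-shock genes were low in eCtrl mouse 1 and eKO mouse 1, so the groups overlapped, and their log2 fold changes were -1.29 ± 0.69 (SE), -1.22 (0.49), -0.64 (0.38) and, for *Dnajb1*, -0.29 (0.17). The immediate early genes had log2 fold changes between -0.11 for *Egr1* and 0.52 for *Fosb*, the latter with 154, 87 and 57 CP20M in eCtrl, 241 in eKO mouse 1 and 75 in the library labelled eKO mouse 2. Without the library labelled eKO mouse 2, *Hspa1a* was at -1.78 (adjusted p = 0.678) and *Hspa1b* at -1.69 (adjusted p = 0.678), and 0 of the 10 were called. Of the other stress lists, 0 genes were called.

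With both lines in 1 fit, 0 of the 10 genes were called for loss of *Olfr78* against control, as were 0% of the 16447 genes tested (limma, with 1267 at an unadjusted p-value under 0.05, 0 called by edgeR and 21 by DESeq2). The largest values were -1.86 ± 0.44 (SE, adjusted p = 0.496) for *Hspa1a*, -1.69 ± 0.34 (SE, adjusted p = 0.47) for *Hspa1b* and -1.13 ± 0.33 (SE, adjusted p = 0.57) for *Egr1*. DESeq2 called *Hspa1b* and *Dnajb1* lower. Without eKO mouse 1, *Hspa1b* (-1.63, adjusted p = 0.0438) and *Egr1* (-1.50, adjusted p = 0.0252) were called, among 365 genes, and without the library labelled eKO mouse 2, 0 of the 10. In the fit without eKO mouse 1, the library labelled eKO mouse 2 was the only eKO library. The effect in the Villin-Cre line minus that in the Olfr78-GFP line was 1.88 ± 0.46 (SE, limma adjusted p = 0.557) for *Egr1*, 1.68 ± 0.56 (SE) for *Fosb*, 1.05 ± 0.87 (SE) for *Hspa1a* and 0.95 ± 0.31 (SE) for *Fos*, and none of the 10 passed the test. This difference was not fitted without the library labelled eKO mouse 2.

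Set side by side across the 2 tables, which were scaled in the same way but apart, the WT crypts of the Olfr78-GFP line stood above the other crypts. Both WT mice were above all 10 other crypts in 6 of the 10 genes (*Hspa1a*, *Hspa1b*, *Dnajb1*, *Fos*, *Egr1* and *Atf3*), against 2.12% of the 16447 genes with at least 40 CP20M in at least 2 crypts. The controls of the other line, in which *Olfr78* is not deleted, were thus below the WT crypts for these 6 genes, and against the KO crypts they differed by gene. *Egr1* had 532, 353 and 344 CP20M in eCtrl against 333 to 765 in KO and 2096 to 2485 in WT, and *Hspa1a* had 66 to 376, 290 to 1221 and 2021 to 3563 in the same order. *Fos* had 1650 to 2291 in eCtrl against 936 to 1775 in KO, and *Dnajb1* 1040 to 1327 against 822 to 1189, so that 2 of the 3 eCtrl mice were above all KO crypts for both. *Junb* had 1238 to 1349 in eCtrl, above all KO crypts at 707 to 1146. The lines were processed as separate tables, and line and table cannot be told apart.

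Per kilobase of exon, *Fos* was first in all 3 sorted groups. In HE pools the means were 10009 CP20M per kb for *Fos*, 7184 for *Egr1*, 6129 for *Jun*, 3212 for *Atf3*, 3101 for *Fosb*, 1958 for *Hspa1b*, 1588 for *Junb*, 1578 for *Hspa1a*, 1102 for *Hsph1* and 867 for *Dnajb1*. *Fosb* and *Atf3* are neighbours that did not differ beyond their spread, as are *Junb* and *Hspa1a*. In WT crypts *Hspa1b* was first at 1948, ahead of *Fos* at 1182 and *Hspa1a* at 941, and *Fosb* was last at 29.7. In KO crypts *Jun* (843) and *Fos* (634) were first and *Fosb* (12.5) again last. In eKO crypts *Jun* was at 953, *Fos* at 866, *Hspa1a* at 27.8 and *Fosb* at 25.3. In eKO mouse 1 alone, without the library labelled eKO mouse 2, *Jun* was at 850, *Fos* at 803, *Fosb* at 38.6 and *Hspa1a* last at 17.5.

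Across the 12 crypt libraries, each line centred on its own mean of log2(CP20M + 10), the heat-shock genes varied together more closely than the immediate early genes. Pearson's r ranged from 0.68 to 0.98 over the 6 pairs of heat-shock genes, with a median of 0.88, and from -0.17 to 0.79 over the 15 pairs of immediate early genes, with a median of 0.28. The 24 pairs between the sets ranged from -0.14 to 0.81. The genes most like *Hspa1a* among 13113 with at least 40 CP20M in every crypt library were *Hspa1b* (r = 0.984), *Dnaja1* (0.920), *Dnajb1* (0.919), *Bag3*, a co-chaperone of Hsp70 (0.916), and *Ddx6*, an RNA helicase (0.888). The genes most like *Fos* were *Tmem106b*, a lysosomal membrane protein (0.957), *Chmp5*, an ESCRT component (0.943), *Nfe2l2*, the transcription factor Nrf2 (0.920), *Eif1*, a translation initiation factor (0.908), and *C530005A16Rik* (0.904), and none of these 5 is on the lists of immediate early genes. These are descriptions over 12 libraries that share 2 WT mice with high values and include the library labelled eKO mouse 2. The 2 Hsp70 copies hold identical stretches, so the division of reads between them is uncertain.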

How the data were processed

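RNA of 18 mouse colon libraries was grouped by sample title. According to the methods, paired-end reads were aligned with STAR on GRCm38, and HTSeq gave reads per gene from the Ensembl annotation. The deposited signal of the table with sorted cells is CP20M, that is, reads scaled to 20000000 for each library with every value rounded up. The deposited score of the crypt columns has the same scale. Whole reads were recovered from the step between values, which fitted 99.80% to 99.99% of a library's values. The design, which assumed scaled values, was kept, and tests of the recovered reads served as alternatives.

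Genes with at least 40 CP20M (2 CPM) in at least 2 of the libraries compared were tested, or above 40 in all 4 for KO against HE pools. The test was limma 3.58.1, with a trend, on log2(CP20M + 10), which understates the change of low genes. P-values were adjusted by Benjamini-Hochberg over all genes tested, and genes under 0.05 were called. Crypts of both lines were fitted with the line as covariate. Alternatives were pseudocounts of 1 and 40, other filters, median-of-ratios rescaling, edgeR 4.0.16 (quasi-likelihood) and DESeq2 1.42.0 on recovered reads, all libraries of a table in 1 fit, the library number as a block, the thresholds of the methods, the Hsp70 copies summed, no covariate for the line, and leaving out each library in turn. The thresholds that the methods set for edgeR were applied to the limma fits. The limma fits were also run on simulated reads whose spread followed the dispersion trend. In that simulation no samples shared a mouse, and no result here rests on it.

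The 10 genes and all gene lists were chosen with earlier results of these data known. The other genes named are, per list and direction, up to 3 called genes with the smallest p-values, and the 5 genes most correlated with *Fos* and with *Hspa1a* over the crypts. Coordinates, exon lengths and transcripts are from GENCODE M21 (GRCm38).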

Additional observations from a re-analysis of the deposited data

How the results depend on the processing

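Of 1194 fold changes of the 10 genes recomputed under an alternative, 1073 kept their direction and their side of the threshold, 56 kept the direction but were no longer called, 22 were newly called and 43 changed sign. The cause of these changes was not tested. For HE pools against sorted WT, 10 genes were called under every alternative except the thresholds of the methods, which require a larger change and called 3, and leaving out 1 library, which gave 8 to 10. For sorted WT against WT crypts, 0 of the 10 and 0 of all genes were called with no filter on low values and 4 of the 10 with the thresholds of the methods, against 9 to 10 on leaving out 1 library. For sorted KO against KO crypts, leaving out 1 KO crypt gave 6, with 7020 to 7450 of all genes called. For KO against WT crypts, 0 were called with all libraries in 1 fit and 0 to 7 on leaving out 1 library. For both lines together, DESeq2 called 2 and leaving out 1 library gave 0 to 2. For KO against HE pools, leaving out 1 library gave 0 to 3.

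No label ties same-numbered libraries to each other. Their deviations from the group means had correlations of 0.589 and 0.363 between eKO and eCtrl, where there are only 2 numbers in common, and between -0.162 and 0.0871 in the other comparisons, so the number was not taken as a pairing. With the replicate block, 10, 0, 7, 0, 10, 5 and 0 of the 10 genes were called for HE against WT, KO against HE, KO against WT crypts, eKO against eCtrl, sorted WT against WT crypts, sorted KO against KO crypts and both lines. Of all genes, 4489, 0, 1991, 3, 4372, 110 and 12 were called in the same order. The genes tested numbered 16355, 11892, 15975, 15401, 15434, 16632 and 16447. A block with the pairs crossed was chosen after seeing the data. For KO against HE pools it called 2 of the 10 genes and 85 genes in all.

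Signs changed only where a gene was not called in the report. For KO against HE pools, the log2 fold change under edgeR and DESeq2 was 0.021 and 0.034 for *Jun* and 0.022 and 0.036 for *Egr1*, and under rescaling, edgeR and DESeq2 0.15, 0.24 and 0.26 for *Junb* and 0.12, 0.16 and 0.18 for *Atf3*. Leaving out 1 library there gave -2.88 to 0.022 for *Hspa1a*, -1.16 to 0.25 for *Dnajb1*, -0.71 to 0.18 for *Fos*, -0.66 to 0.75 for *Fosb*, -0.71 to 0.25 for *Jun*, -0.59 to 0.56 for *Junb*, -0.86 to 0.32 for *Egr1* and -0.37 to 0.29 for *Atf3*. For eKO against eCtrl, *Fos* was at -0.009, -0.017 and -0.02 under rescaling, edgeR and DESeq2 and *Atf3* at 0.087 with the replicate block, and leaving out 1 library gave -0.11 to 0.13 for *Fos*, -0.27 to 1.30 for *Fosb*, -0.58 to 0.36 for *Egr1* and -0.10 to 0.087 for *Atf3*. For both lines, *Jun* was at -0.029, -0.0053 and -0.013 in that order, and leaving out 1 library gave -0.078 to 0.08 for *Jun* and -0.08 to 0.078 for *Junb*. It gave -0.30 to 0.066 for *Junb* in KO against WT crypts and -0.32 to 1.94 for *Hspa1b* in sorted KO against KO crypts.

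Counts of all genes called moved by over 1.5 times under some alternatives. The thresholds of the methods called 287 genes in place of 3892 for HE against WT, 116 in place of 3791 for sorted WT against WT crypts, 400 in place of 8861 for sorted KO against KO crypts, 1572 in place of 0 for KO against HE pools and 4 in place of 0 for both lines. With no filter on low values, 0, 587 and 2 genes were called for sorted WT against WT crypts, KO against WT crypts (1177 in the report) and KO against HE pools. DESeq2 called 1742 genes for sorted WT against WT crypts, 4071 (edgeR 3447) for sorted KO against KO crypts, 8 for KO against HE pools, 21 for both lines and 17 (edgeR 5, rescaling 4) in place of 2 for the difference between the lines. All libraries in 1 fit gave 428, 4 and 1671 genes for KO against HE pools, KO against WT crypts and sorted WT against WT crypts, and the replicate block 1991, 3, 110 and 12 for KO against WT crypts, eKO against eCtrl, sorted KO against KO crypts and both lines. Leaving out WT mouse 1, WT mouse 2 or KO mouse 2 gave 102, 8 and 707 genes for KO against WT crypts. Leaving out WT crypt mouse 1, WT crypt mouse 2 or sorted WT sample 1 gave 1413, 1230 and 6549 genes for sorted WT against WT crypts, and leaving out sorted WT sample 1 or 2 gave 2126 and 1828 for HE against WT. Leaving out HE pool 1, KO pool 1 or KO pool 2 gave 7, 373 and 96 for KO against HE pools, leaving out eCtrl mouse 3 gave 1 for eKO against eCtrl, and leaving out KO mouse 4 or eKO mouse 1 gave 1 and 365 for both lines. In these fits the lone sample of a group was assumed to vary like the other groups. Most comparisons had 2 libraries on 1 side, and the sorted libraries were shallower than the crypts, most of all KO pool 1, which limits what can be seen in low genes. All libraries in 1 fit was not run for eKO against eCtrl, where it is the same fit.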
